A study of Mus musculus with 11 samples.

Results

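The ERVK family of mouse endogenous retroviruses was described outside its best-known groups. Members were all features of the deposited repeat table whose family is ERVK and whose name does not begin with IAP, ETn, MMETn, ERVB7_1 or RLTRETN. This left 30627 of 442429 repeat features, under 250 of 1550 repeat names, made of 245158 genomic copies. The series holds 11 samples of the mouse embryonic stem cell line J1 with mutated DNA methyltransferase genes. Poly(A)-selected RNA was sequenced for 3 of them, and the repeat values used here come from 2: 1 library labelled TKO and 1 labelled TKO_FL, both at day 0. The labels of other samples spell TKO as DNMT TKO, so both genotypes carry TKO in their names, and the labels leave FL unexplained. The cells were grown on mitomycin-treated mouse embryonic fibroblasts in serum with LIF, and nothing in the labels says how many clones or cultures a library stands for.

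An endogenous retrovirus is a retroviral genome inherited in the germ line. An intact copy has an internal region with the viral genes, flanked by 2 long terminal repeats (LTRs) that carry the promoter and the polyadenylation signal. Most copies have recombined to a solitary LTR, which can still act as a promoter or lie inside the exons of a cellular gene. In repeat names, "-int" marks an internal region, and most names without it, such as those beginning with RLTR, are LTRs. In embryonic stem cells many ERVK elements are held silent by histone methylation through TRIM28 and SETDB1 and by DNA methylation of CpG sites. MMERVK10C, with its LTR RLTR10C, is a known target of this repression, and RLTR9 and RLTR13 LTRs are known for enhancer activity in early embryonic and placental cells.

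A few member LTRs hold the start of an annotated gene, and 5 such starts are shown as examples of copies with a known sequence. The repeat value is that of a feature, which joins the printed copy with others. The features hold 7 copies at Platr10, 13 at Platr14, 3 at Ptprtos, 19 at Tfpi and 6 at Gtsf1l. Their values therefore cannot be assigned to the printed copy alone. Of 32851 RefSeq promoter windows (GRCm38.p6, the assembly called mm10 in the series, on which all coordinates here are given; 250 bases before to 50 after each start), 724 touched a member copy. In 29 genes of at least 1 TPM in one library, the first base lay inside a copy on the gene's own strand. The 5 were chosen after their values were seen, from the 12 of these whose repeat feature had at least 10 fragments. Capitals mark the bases inside the copy, read 5′ to 3′ on the gene's strand. Non-coding RNA genes are shown with the whole window of 300 bases, and Tfpi and Gtsf1l with the 250 bases before the start.
Platr10, a pluripotency-associated non-coding RNA, in an RLTR9E copy, chr3:75655682-75655981, minus strand: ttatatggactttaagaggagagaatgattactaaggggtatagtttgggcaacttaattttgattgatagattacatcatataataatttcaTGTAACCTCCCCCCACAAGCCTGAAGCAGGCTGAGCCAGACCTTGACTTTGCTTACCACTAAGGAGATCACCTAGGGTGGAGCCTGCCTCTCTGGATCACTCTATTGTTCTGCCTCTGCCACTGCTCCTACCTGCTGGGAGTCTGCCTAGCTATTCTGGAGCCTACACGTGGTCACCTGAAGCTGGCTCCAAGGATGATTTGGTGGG
Platr14, another of that group, in an RLTR16B_MM copy, chr2:104559209-104559508, plus strand: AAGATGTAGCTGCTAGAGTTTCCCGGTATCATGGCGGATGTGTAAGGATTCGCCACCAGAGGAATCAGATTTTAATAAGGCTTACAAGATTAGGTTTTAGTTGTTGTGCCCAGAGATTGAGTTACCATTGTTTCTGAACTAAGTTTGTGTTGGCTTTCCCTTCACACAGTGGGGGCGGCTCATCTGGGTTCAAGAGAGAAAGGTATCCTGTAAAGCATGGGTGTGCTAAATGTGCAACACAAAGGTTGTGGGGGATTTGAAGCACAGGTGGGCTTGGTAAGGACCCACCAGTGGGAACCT
Ptprtos, a non-coding RNA opposite Ptprt, in an RLTR17 copy, chr2:162390563-162390862, plus strand: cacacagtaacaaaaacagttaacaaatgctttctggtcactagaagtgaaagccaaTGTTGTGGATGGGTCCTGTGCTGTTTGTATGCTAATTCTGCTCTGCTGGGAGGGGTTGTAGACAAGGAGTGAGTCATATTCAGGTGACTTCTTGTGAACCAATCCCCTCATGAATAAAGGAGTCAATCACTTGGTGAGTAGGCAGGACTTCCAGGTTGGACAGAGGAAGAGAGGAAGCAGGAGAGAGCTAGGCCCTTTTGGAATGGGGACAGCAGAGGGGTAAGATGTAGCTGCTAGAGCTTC
Tfpi, tissue factor pathway inhibitor, in an RLTR42 copy, chr2:84476760-84477009, minus strand: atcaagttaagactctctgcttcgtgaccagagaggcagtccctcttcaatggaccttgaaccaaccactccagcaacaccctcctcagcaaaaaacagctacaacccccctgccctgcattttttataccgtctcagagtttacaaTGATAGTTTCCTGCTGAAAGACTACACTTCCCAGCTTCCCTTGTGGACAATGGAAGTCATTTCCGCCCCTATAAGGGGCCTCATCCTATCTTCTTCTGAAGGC
Gtsf1l, a relative of the germline factor Gtsf1, in an RLTR11B copy, chr2:163089602-163089851, minus strand: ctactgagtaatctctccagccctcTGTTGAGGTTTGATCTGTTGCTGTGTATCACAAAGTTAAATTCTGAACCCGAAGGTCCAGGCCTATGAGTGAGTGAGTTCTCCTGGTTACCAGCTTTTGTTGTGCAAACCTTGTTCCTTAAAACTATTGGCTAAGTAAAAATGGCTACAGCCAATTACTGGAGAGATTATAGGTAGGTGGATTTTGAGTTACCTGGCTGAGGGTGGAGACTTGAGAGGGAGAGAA

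CpG sites were counted in the 300-base windows of the 12 genes whose feature had at least 10 fragments, and ranged from 0 to 23 with a median of 3. The dinucleotide CG occurred 1 time in the 300 bases at Platr10, 4 times at Platr14 and 0 times at Ptprtos, and in the 300-base windows of Tfpi and Gtsf1l 5 and 2 times. Over all promoter windows of that length the median was 7, with quartiles of 3 and 20; 10 of the 12 windows were at or below that median, and Platr14 and Tfpi lay between the quartiles. The share of all windows with as few or fewer was 14.1% for Platr10, 38.0% for Platr14, 5.43% for Ptprtos, 43.6% for Tfpi and 23.3% for Gtsf1l.

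Values are given in 2 ways. The first is TPM, fragments per length of a feature on a scale set by the repeat table's total, summed over the features of a name. Its log2 fold is log2((TKO_FL + 1)/(TKO + 1)). The second is the number of fragments recovered from TPM and length, taken as a share of all repeat fragments in the library, with an exact 95% binomial interval of the ratio. With 1 library per genotype no difference has a replicate check, no p-value is given, and the intervals cover counting error only. Any PCR duplicates left in the deposited values count as separate fragments. A name was measured with at least 5 TPM in one library, a feature with at least 10 fragments over both, and 2-fold was the threshold for calling either. A feature joins same-numbered copies of 1 name on up to 21 chromosomes. For the 9823 features with 1 copy (32.1%) the position of that copy is known. These held 1.52% of the members' fragments in TKO. Some of them, such as MMERVK10C-int_dup272 with 40 and 28.67 fragments, have a fractional number. Their fragments can be shared with other places, so the source of those is not known.

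The libraries were first set against their labels. Dnmt1, the maintenance methyltransferase, had 54.9 TPM in TKO and 1177 TPM in TKO_FL on the scale of the gene table. Among 15 genes for repeat silencing, Dnmt1 was the only one called, and the median log2 fold was -0.18. Trim28 had 1568 and 1178 TPM, and Setdb1 had 77.5 and 64.1 TPM. All 10 stem cell markers were expressed and none was called. Fibroblast feeder markers summed to 483 TPM in TKO and 246 TPM in TKO_FL, with 5 of 11 measured called lower and none of 12 at 0. Primitive endoderm markers summed to 808 and 167 TPM, with 12 of 12 called lower and none at 0. The part of these cells in the results below was not tested. The repeat table held 1327699 fragments in TKO and 1179816 in TKO_FL, or 12.2% and 11.7% of the fragments in the gene table.

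As a whole the members were level between the libraries. They summed to 11858 TPM in TKO and 11730 TPM in TKO_FL. In fragments they numbered 40894 and 37143, which is 3.08% and 3.15% of all repeat fragments (log2 ratio 0.03, interval 0.01 to 0.05). The IAP, ETn and MusD-type ERVK features left out by the rule went from 8.22% to 5.80% of repeat fragments, a log2 ratio of -0.50. Of the other LTR families, ERV1 had -0.21, ERVL -0.02 and ERVL-MaLR -0.004. In bulk RNA, fewer cells that express an element and less RNA per cell cannot be told apart.

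Of the 250 names, 159 were measured, 74 had signal below the minimum and 17 had none in either library. Of the 159, 9 were called higher in TKO_FL, against a background of 6.6% of 969 repeat names, and 8 were called lower, against 6.71%. The members' shares, 5.66% and 5.03%, were near those backgrounds. Their median log2 fold was -0.08, and that of all measured names was -0.01. The plot of summed TPM by name shows most points along the diagonal.

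**Figure D1:**
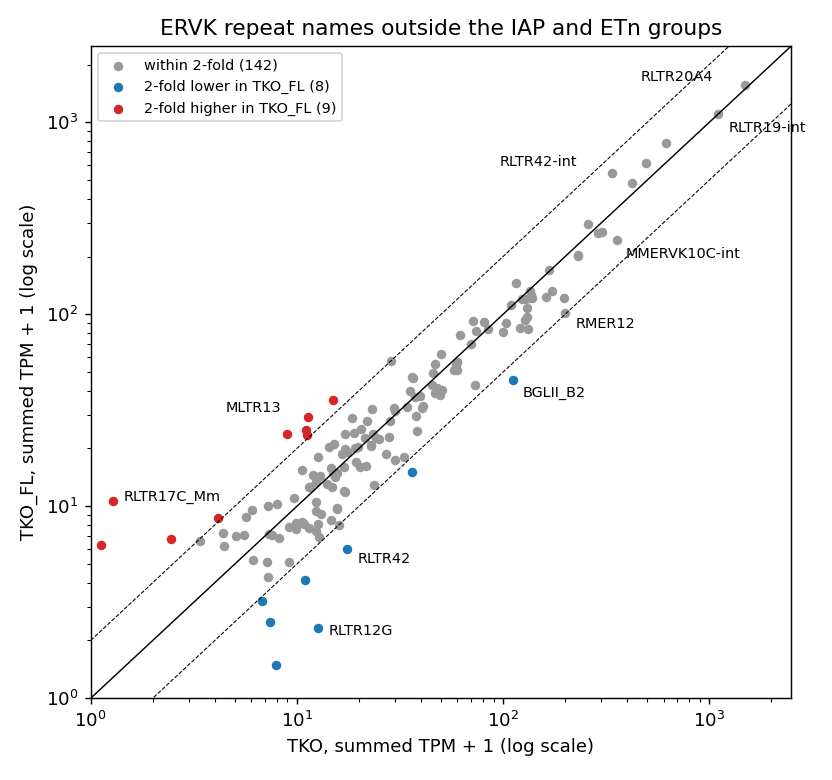
Summed TPM plus 1 of each of the 159 measured ERVK names in TKO (horizontal) and TKO_FL (vertical), both on log scales, 1 library each; the solid line marks equal values and the dashed lines a 2-fold difference. The 9 higher and 8 lower names lie mostly at low values, and the abundant RLTR20A4 and RLTR19-int lie near the line.

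The calls by group of names stand beside 6.6% higher and 6.71% lower over all measured repeat names. The 84 measured RLTR names had 2 called higher (2.38%) and 6 lower (7.14%), with a median log2 fold of -0.09. The 37 RMER names had 5 higher (13.5%) and 0 lower, median -0.04. Of these 5, RMER16B2, RMER16 and RMER6-int rest on few fragments. RMER13B and RMER3D-int were not past 2-fold without their leading feature, with log2 folds of 0.74 and -0.13. The MLTR names, 11 measured, had 1 higher and 0 lower. ERVB names, 8 measured, had 0 higher and 1 lower, and BGLII names, 4 measured, also had 0 higher and 1 lower. Both MurERV names were measured, 1 of them higher. No name was called among 4 MMERVK, 3 MYSERV and 6 other names. Of the 23 measured internal regions 3 were called higher (13.0%) and 0 lower, with a median of -0.10. Of the 136 LTRs and other names 6 were higher (4.41%) and 8 lower (5.88%), with a median of -0.07.

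Expression was concentrated in few names. The 10 most abundant held 47.7% of the members' TPM in TKO and 52.5% in TKO_FL. RLTR20A4, an LTR, was first with 1491 TPM in TKO and 1567 TPM in TKO_FL, and RLTR19-int, an internal region, followed with 1103 and 1109 TPM. These 2 names differed little between the libraries, with log2 folds of 0.07 and 0.01. RLTR17B_Mm had 616 and 778 TPM, RLTR20C1_MM 492 and 614 TPM, and RLTR13G 423 and 480 TPM. The next was RLTR42-int with 336 and 544 TPM, a log2 fold of 0.69. MMERVK10C-int had 354 and 243 TPM, and its log2 fold of -0.54 was the lowest of these 10. RLTR20B1 had 301 and 267 TPM, ERVB4_1C-LTR_Mm 258 and 296 TPM, and RLTR49 287 and 265 TPM.

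Within the abundant LTR names, a few short features at gene exons carried much of the TPM. RLTR20A4_dup748, 299 bases in 3 copies, had 894 TPM in TKO and 941 TPM in TKO_FL; 1 copy (chr1:171138636-171138786) overlaps an exon of Sdhc, a subunit of succinate dehydrogenase. That feature alone exceeded the rest of the RLTR20A4 TPM in both libraries. RLTR20A4_dup454, at an exon of the proteasome activator gene Psme3, had 199 and 184 TPM, and RLTR20A4_dup84, at Phf3, had 39.8 and 54.9 TPM. The leading RLTR17B_Mm features touch exons of Iars2, a mitochondrial isoleucyl-tRNA synthetase (159 and 240 TPM), Sppl3, an intramembrane protease (74.5 and 80.0 TPM), and Pafah1b1, a dynein regulator (37.1 and 40.6 TPM). In RLTR20C1_MM the features were less uniform: RLTR20C1_MM_dup310, at Serinc3, had 126 and 81.0 TPM. RLTR20C1_MM_dup31, at the RNA-binding protein gene Lsm14a, had 57.3 and 78.4 TPM, and RLTR20C1_MM_dup246, at the small heat shock protein gene Hspb8, had 38.4 and 69.5 TPM.

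The leading features of the other 2 abundant names lay mostly outside exons. RLTR19-int_dup81 had 234 and 247 TPM (1279 and 1253 fragments), RLTR19-int_dup115 had 168 and 182 TPM, and RLTR19-int_dup67 had 101 and 110 TPM; the last joins 19 copies and touches an exon of 6030407O03Rik. RLTR13G_dup48 had 41.5 and 57.5 TPM, RLTR13G_dup22 38.8 and 41.1 TPM, and RLTR13G_dup33 29.3 and 33.1 TPM. For RLTR13G nearly all fragments, 99.9%, sat in features whose fragment number is a fraction. A fraction can arise where a fragment was split among places in the genome or among features, and the counting options were not given. Any fraction sets a feature apart, so not all of its fragments need be shared. The copy that gave them is unknown.

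Member copies overlapped annotated exons rarely, but the features that hold such copies carried much of the signal. A feature counts as exon-touching if any 1 of its copies overlaps an exon, so its fragments can come from its other copies. For example, RLTR19-int_dup85, of 18 copies, had 1204 and 1130 fragments, while its exon gene 1700007F19Rik had 0 TPM in both libraries. Of all copies 1794 (0.732%) overlapped an exon of the gene table, in 1726 features (5.64%), and those features held 45.1% of the members' fragments in TKO and 47.0% in TKO_FL. The same share was 11.2% and 15.6% in the IAP, ETn and MusD-type features, 38.6% and 41.0% in ERV1, 58.9% and 60.9% in ERVL, and 48.2% and 50.3% in ERVL-MaLR. Exon-touching member features had a log2 fragment ratio of 0.09 (interval 0.06 to 0.12), and the other member features one of -0.02 (interval -0.05 to 0.01). In the IAP, ETn and MusD-type features the corresponding values were -0.02 and -0.58, in ERV1 -0.13 and -0.27, in ERVL 0.03 and -0.09, and in ERVL-MaLR 0.06 and -0.07. In each of these 5 groups the exon-touching value was the higher one. Fragments in an exon can belong to the gene's transcript, the repeat table and the gene table can count the same fragments, and the library kit as described does not mark strand.

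At these exons the repeat values and the gene values were related. For 344 measured features that touch an exon of 1 gene of at least 1 TPM, 290 genes in all, the log2 folds of feature and gene had a Pearson r of 0.55 and a Spearman rho of 0.51 across features. For the 60 features with at least 100 fragments these were 0.77 and 0.79. Both come from the same 2 libraries and partly the same fragments, features are not independent replicates, and the correlation is a description. Of the 28 features called at 2-fold, 24 had the gene on the same side of 0 and 7 had a gene past 2-fold on that side, where 3.58% of all genes were called higher and 3.06% lower.

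**Figure D2:**
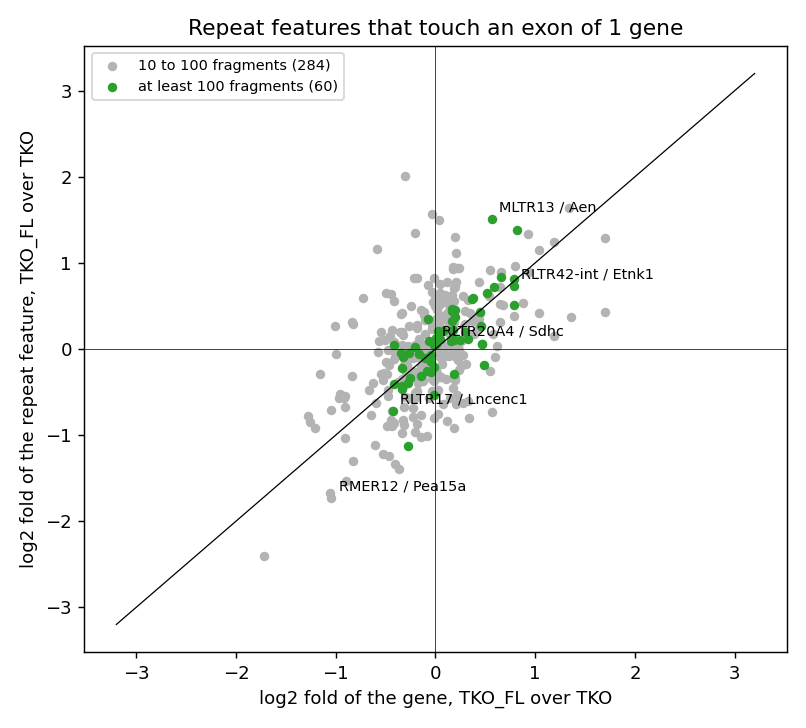
Log2 fold (TKO_FL over TKO, pseudocount 1) of each of 344 repeat features that touch an exon of 1 gene (vertical) against that of the gene (horizontal); green points are the 60 features with at least 100 fragments, and the diagonal marks equal folds. The green points follow the diagonal more closely than the grey ones, with MLTR13 at Aen above it.

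RLTR42-int shows such a case. Its main feature, RLTR42-int_dup152, had 170 TPM in TKO and 284 TPM in TKO_FL from 312 and 485 fragments; 1 of its 5 copies (chr6:143203487-143204361, plus strand) overlaps an exon of Etnk1, an ethanolamine kinase gene on the same strand. Etnk1 itself had 64.3 and 112 TPM. RLTR42-int_dup150 and RLTR42-int_dup151, which also touch Etnk1, had 50.7 and 89.6 TPM and 43.1 and 61.7 TPM. All 8 measured RLTR42-int features had a fragment ratio above 0.

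MLTR13 had 10.4 TPM in TKO and 28.1 TPM in TKO_FL, from 54 and 148 fragments, a log2 fragment ratio of 1.62 (interval 1.17 to 2.10). MLTR13_dup9, which overlaps an exon of Aen, an apoptosis-enhancing nuclease gene (chr7:78908890-78909955), held 48 and 137 of these fragments, and Aen had 50.3 and 74.9 TPM. Without that feature the log2 fold of MLTR13 in TPM was 0.10. RLTR20C1_MM_dup142, at an exon of the receptor tyrosine kinase gene Kit, had 32 and 80 fragments, and Kit had 21.8 and 39.2 TPM. In the other direction, RMER12_dup225, at an exon of Pea15a, which binds ERK kinases (chr1:172198982-172199125), had 61.5 and 17 fragments, and Pea15a had 26.4 and 12.3 TPM. RLTR17_dup72, at the stem cell non-coding RNA Lncenc1, had 421 and 235 fragments, and Lncenc1 had 241 and 180 TPM. RLTR20C1_MM_dup142 and RLTR17_dup72 were chosen after their values were seen.

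Fragment depth gave a second view of the names. The 36 names with at least 500 fragments over both libraries held 71.7% of the members' fragments. The interval lay above 0 for 11 of them, against 33.4% of 347 repeat names of that depth, and below 0 for 9, against 16.1%; for 16 it spanned 0. None of the 36 reached 2-fold. In 18 of the 36 most fragments lay in exon-touching features; among these 8 intervals were above and 3 below 0, with a median ratio of 0.13. Among the other 18, 3 were above and 6 below, with a median of -0.13.

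**Figure D3:**
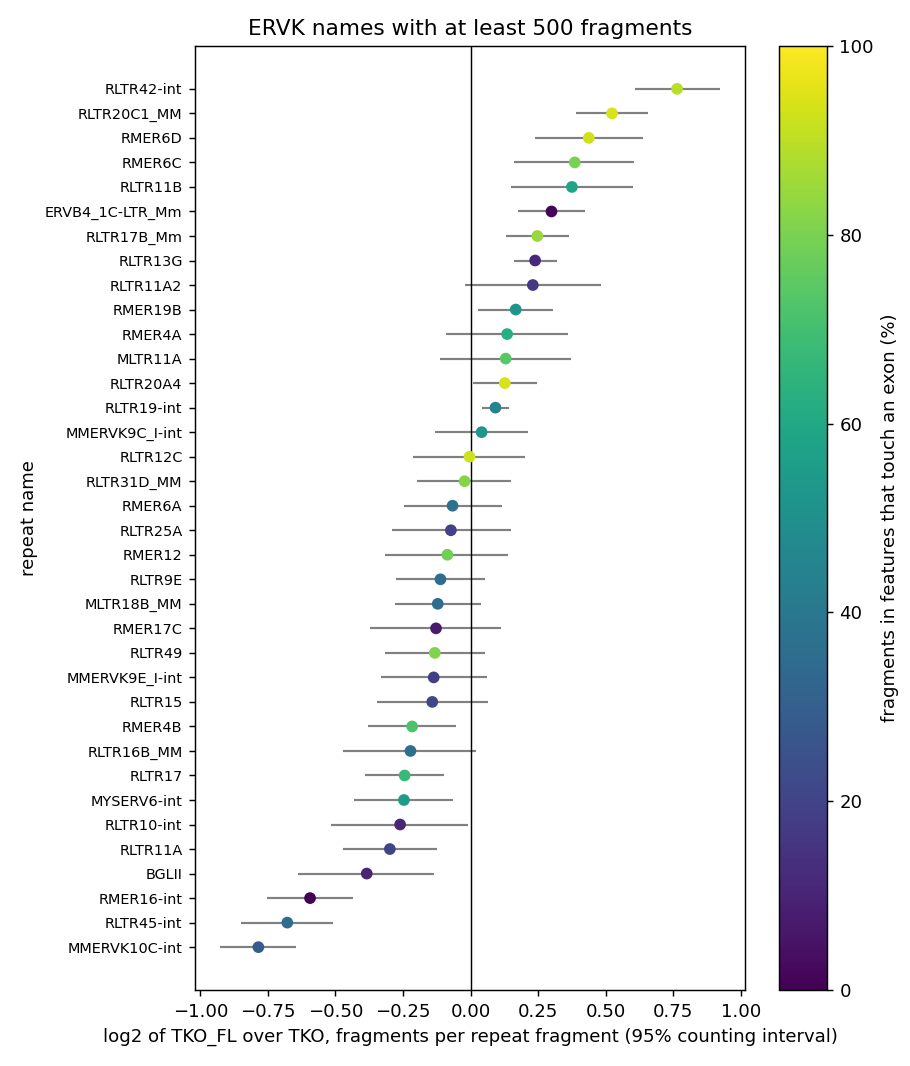
Log2 ratio of TKO_FL to TKO, each as a share of repeat fragments, for the 36 ERVK names with at least 500 fragments; lines are exact 95% binomial intervals (counting error only) and colour is the percent of fragments in exon-touching features. MMERVK10C-int, RLTR45-int and RMER16-int are lowest at -0.79, -0.68 and -0.59, and RLTR42-int is highest at 0.76.

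MMERVK10C-int had the lowest ratio of the 36. It had 1212 fragments in TKO and 625 in TKO_FL, a log2 ratio of -0.79 (interval -0.93 to -0.64). Of its 269 features 201 had signal and 40 were measured, and 36 of the 40 had a ratio below 0. Features of 1 name share sequence and can split the same fragments. Counts of features above or below 0, for this name and for the others, are therefore not counts of replicates. The MMERVK10C-int feature with most fragments in TKO, MMERVK10C-int_dup148, had 131.7 and 40. MMERVK10C-int_dup51 had 47.8 and 16.3, MMERVK10C-int_dup45 had 46.2 and 26.7, and MMERVK10C-int_dup147 had 31 and 7. The median ratio over the 40 was -1.23, with a range from -3.67 to 1.48.

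Exon-touching MMERVK10C-int features had a ratio nearer 0 than the rest, with intervals that did not overlap. They had 288 and 233 fragments, a log2 ratio of -0.14 (interval -0.39 to 0.12), and among them MMERVK10C-int_dup140, at an exon of 2610524H06Rik, had 125 and 108. The other MMERVK10C-int features had 924 and 392 fragments, a ratio of -1.07 (interval -1.24 to -0.89). Most MMERVK10C-int fragments, 77.0%, lay in features with fractional numbers. In features with whole numbers alone there were 241 and 181 fragments and the interval spanned 0 (ratio -0.24, interval -0.53 to 0.04). The whole-number features that touch no exon had 72 and 35 fragments, a ratio of -0.87 (interval -1.50 to -0.27). Of these, MMERVK10C-int_dup147 had 31 and 7 and MMERVK10C-int_dup149 had 11 and 2, each joining 8 copies. That value therefore rests largely on a few features. Among the measured whole-number features, MMERVK10C-int_dup145 had a ratio above 0, from 5 and 8 fragments. Fragments shared with related elements, such as those left out by the rule, cannot be told apart in these features.

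The TPM of MMERVK10C-int gives a smaller difference than its fragments, and short features weigh more in it, in both directions. MMERVK10C-int_dup272, 1 copy of 225 bases at chr4:145831077-145831301, overlaps an exon of Znf41-ps and had 140 and 108 TPM from 40 and 28.7 fragments. It held 41.6% of the name's TPM. MMERVK10C-int_dup282, 1 copy of 225 bases on the same chromosome, had 19.3 and 51.5 TPM from 5.5 and 13.7 fragments. MMERVK10C-int_dup269, 46 bases long, instead widened the TPM difference, with 51.5 TPM in TKO from 3 fragments and 0 in TKO_FL.

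**Figure D4:**
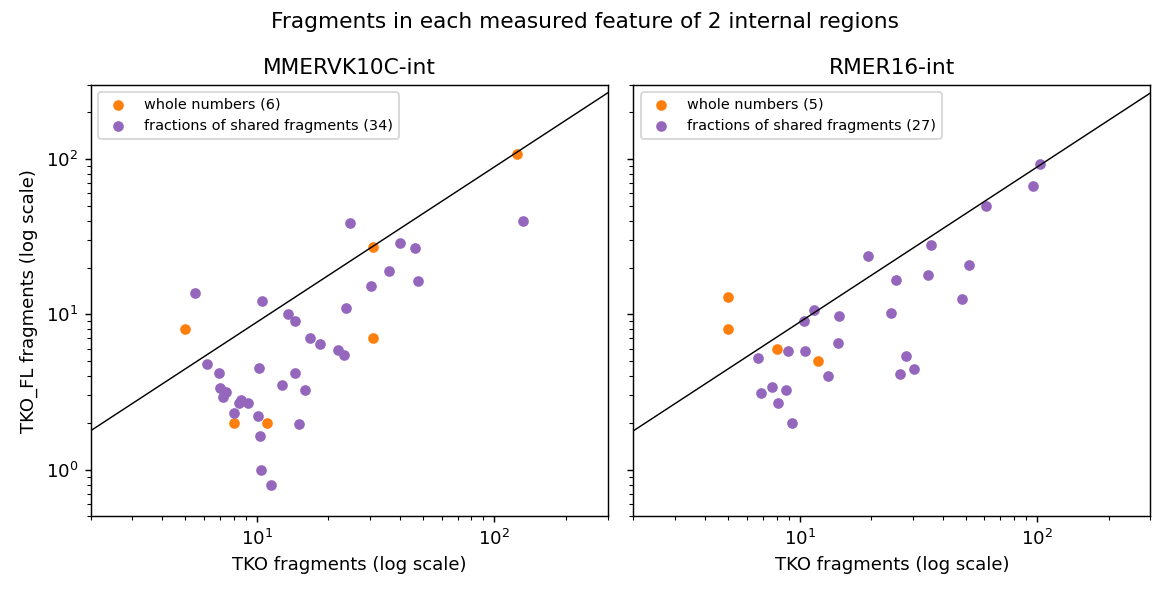
Fragments in TKO (horizontal) and TKO_FL (vertical), both on log scales, for each of the 40 measured features of MMERVK10C-int (left) and the 32 of RMER16-int (right); colour separates whole fragment numbers from fractions, and the line marks an equal share of repeat fragments. In MMERVK10C-int 36 features and in RMER16-int 27 have a ratio below that of the line. Of the latter, RMER16-int_dup38 and RMER16-int_dup39, with 0 and 0.33 fragments in TKO_FL, fall below the vertical axis and are not visible.

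RLTR45-int and RMER16-int were next. RLTR45-int had 785 and 436 fragments, a ratio of -0.68 (interval -0.85 to -0.51), with 15 of 18 measured features below 0. RLTR45-int_dup20 had 92.6 and 31.3 fragments, RLTR45-int_dup18 had 85.1 and 36.3, and RLTR45-int_dup22 had 71.0 and 77.5. RMER16-int had 880 and 518 fragments, a ratio of -0.59 (interval -0.75 to -0.44), with 27 of 32 features below 0. RMER16-int_dup107 had 48.4 and 12.5 fragments, and RMER16-int_dup98 had 102.4 and 92.3. Features with fractional numbers held 98.7% of the RLTR45-int and 87.8% of the RMER16-int fragments. The whole-number features had 14 and 2 fragments for RLTR45-int and 106 and 64 for RMER16-int, and both ratios were below 0 (-2.64 and -0.56). Of these RMER16-int fragments, 22 and 0 came from RMER16-int_dup38, which joins 19 copies, so that value leans on a single feature. RMER16-int_dup223 and RMER16-int_dup49 went the other way, with 5 and 13 and with 5 and 8. Exon-touching features held 0.286% of the RMER16-int fragments. BGLII followed with 325 and 221 fragments, a ratio of -0.38 (interval -0.64 to -0.14), with 8 of 9 measured features below 0. RLTR11A had 652 and 471, a ratio of -0.30.

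At the upper end, RLTR42-int had 545 and 823 fragments, a ratio of 0.76 (interval 0.61 to 0.92), and RLTR20C1_MM had 814 and 1040, a ratio of 0.52 (interval 0.39 to 0.66). RMER6D had 378 and 455, a ratio of 0.44; its only measured feature touches an exon of Zwint, a kinetochore gene, and had 335 and 433. In RLTR42-int, RLTR20C1_MM and RMER6D the exon-touching features held 89.3%, 94.5% and 92.9% of the fragments. ERVB4_1C-LTR_Mm was unlike them, with 0.991% in exon-touching features, 1012 and 1107 fragments, a ratio of 0.30 (interval 0.18 to 0.42) and 19 of 22 features above 0. RLTR13G had 2470 and 2591 fragments, a ratio of 0.24 (interval 0.16 to 0.32), with 28 of 33 above 0. Both values rest on features with fractional numbers, which held 99.9% of the fragments of each name. The whole-number features had 2 and 1 fragments for ERVB4_1C-LTR_Mm and 4 and 0 for RLTR13G, and the log2 folds in TPM from these alone were -0.92 and -1.24.

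Internal regions and their LTRs did not always go together. For 8 pairs of 1 stem both parts were measured. MMERVK10C-int and RLTR10C had log2 folds of -0.54 and -0.53; RLTR10C had 26.1 and 17.8 TPM (153 and 93.9 fragments). RLTR45-int and RLTR45 had -0.45 and -0.88, the LTR with 32.2 and 17.0 TPM. The whole-number features of RLTR45-int had 36.6 and 1.25 TPM from 14 and 2 fragments. Its features with fractional numbers were level in TPM, 90.3 and 91.1, but had 771 and 434 fragments, a ratio of -0.66. RLTR18-int and RLTR18 had -0.39 and -0.13, and RMER17C-int and RMER17C had -0.02 and -0.11. RLTR10-int and RLTR10 were on opposite sides of 0 with -0.64 and 0.19; RLTR10 had 107 and 100.2 fragments, a ratio of 0.07 whose interval, -0.34 to 0.48, spanned 0. RLTR42-int and RLTR42 were on opposite sides too, with 0.69 and -1.55, as were RMER16-int and RMER16, with -0.70 and 1.07. In the RLTR42 pair, exon-touching features, led by RLTR42-int_dup152 at Etnk1, held 89.3% of the internal region's fragments. RLTR42_dup6, at Tfpi, gave 13.0 and 3.85 of the LTR's 16.6 and 5.01 TPM. The values of that pair therefore rest largely on features that touch exons of different genes. RLTR19-int and RLTR19 had 0.01 and 1.41; RLTR19 rested on 14 and 22 fragments and RMER16 on 12 and 18, and both LTRs' counting intervals spanned 0.

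The 17 called names were mostly thinly covered. They held 1.70% of the members' fragments, 9 of them had under 50 fragments over both libraries, and in 9 a single feature held over 50% of the TPM. The counting interval lay on the side of the call for 10 of the 17, 4 of the higher and 6 of the lower. Without its leading feature, 5 names were still called.

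Among the higher names, RLTR17C_Mm had the largest log2 fold, 3.06, with 0.281 and 9.65 TPM from 2 and 6 fragments; 1 fragment on a feature of 96 bases gave 8.84 of the TPM in TKO_FL. RMER16B2 had 0.119 and 5.28 TPM from 1 and 9 fragments. RMER6-int had 1.45 and 5.75 TPM (8 and 12 fragments), and RLTR19 had 8.00 and 22.9 TPM. These 4 names therefore rest on few fragments. RMER13B was better covered, with 13.9 and 34.9 TPM from 152 and 202 fragments (ratio 0.58, interval 0.27 to 0.89). RMER13B_dup163, of 464 bases, gave 11.0 of its TPM in TKO_FL from 6 fragments and had 0 in TKO, and without it the log2 fold was 0.74. RMER3D-int had 10.0 and 23.9 TPM (78 and 84.3 fragments). RMER3D-int_dup454, 115 bases long with 0 and 2 fragments, gave 14.8 of the 23.9 TPM, and without it the log2 fold was -0.13. MurERV4-int had 10.1 and 22.6 TPM (56 and 73 fragments); MurERV4-int_dup309, 89 bases long with 0 and 1 fragment, gave 9.53 of the 22.6 TPM, and without it the log2 fold was 0.34. RMER16 had 3.13 and 7.69 TPM. MLTR18A_MM lay just inside the threshold with 27.5 and 55.8 TPM, from 13 fragments in each library.

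Among the lower names, RLTR12G had 11.7 and 1.33 TPM from 19.2 and 3 fragments, and RLTR26D_MM had 6.94 and 0.497 TPM from 15 and 1. RLTR26D_MM had all its TPM in 1 feature of 4 copies that touches an exon of Amot, the angiomotin gene, which had 12.7 and 3.16 TPM. RLTR13D6 had 6.44 and 1.49 TPM (46 and 16 fragments), with the leading feature holding 20.3% of the TPM. ERVB7_3-LTR_MM had 9.91 and 3.12 TPM (54 and 23 fragments). RLTR42 had 16.6 and 5.01 TPM (63.5 and 18 fragments, ratio -1.65, interval -2.50 to -0.89). BGLII_B2 had 111 and 44.4 TPM, of which 110 and 41.2 came from 20 and 7 fragments on 1 copy of 144 bases at an exon of the transcription cofactor gene Lbh (chr17:72941605-72941748). RLTR9D2 had 35.3 and 14.0 TPM (34 and 16 fragments), and RLTR44A 5.79 and 2.23 TPM (18 and 11 fragments). MMTV-int, named for mouse mammary tumour virus, had 15.0 and 7.02 TPM, and RMER12 had 199 and 100.1 TPM; both lay just inside the threshold. The fragment ratio of RMER12 was -0.09 (interval -0.32 to 0.14), since RMER12_dup225 weighs more in TPM.

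Of the 30627 features, 6659 had signal and 1007 were measured. At 2-fold 50 were called higher, against a background of 6.34% of 23264 repeat features, and 55 lower, against 7.73%; the members' shares were 4.97% and 5.46%. Their median log2 fold was -0.05, beside -0.03 for all features. The widest contrast in fragments among features with at least 50 was RMER19B2_dup32, with 1 fragment in TKO and 50 in TKO_FL. It joins 20 copies, touches no exon and has whole numbers, so which copy gave the fragments is not known. RMER19B_dup246 had 38 and 97 fragments and RLTR17_dup76 had 28 and 74, both also outside exons. RLTR11A_dup45, at an exon of D17H6S56E-5, had 52 and 9 fragments, and that gene had 36.8 and 17.2 TPM. These 4 features were chosen after their values were seen.

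Of the 29 genes that start inside a member copy, 1 was called higher, against 3.58% of all genes, and 1 lower, against 3.06%; 1 of 29 is 3.45%. These genes had 16 above and 13 below 0 and a median of 0.04, beside 0.00 for all genes. Of the 5 with the sequences printed above, Platr10 had 274 TPM in TKO and 204 TPM in TKO_FL, and its RLTR9E feature had 98 and 68 fragments. Platr14 had 55.3 and 43.7 TPM, and its RLTR16B_MM feature 121 and 80 fragments. Ptprtos had 7.49 and 3.51 TPM, and its RLTR17 feature 17 and 10 fragments. Tfpi, an inhibitor of blood coagulation, had 62.4 and 33.1 TPM, and its RLTR42 feature 54.5 and 15 fragments. Gtsf1l had 74.7 and 77.4 TPM, and its RLTR11B feature 102 and 103 fragments. Over the 12 genes whose feature had at least 10 fragments, the log2 folds of gene and feature lay on the same side of 0 in 10, these 5 included, and on opposite sides in 2. The 2 were Apobec1, a cytidine deaminase gene (gene -0.005, RLTR19-int feature 0.61 from 9 and 16 fragments), and Plcxd1 (gene 0.02, RMER19A feature -0.48 from 9 and 4 fragments). Gtsf1l was nearly equal in both libraries. For each of the 12 genes the copy holds the gene's first base, so gene and feature can count the same fragments. Agreement in side is therefore partly built in and is only a description. The RLTR42_dup6 feature at Tfpi joins 19 copies and held 78.2% of the RLTR42 TPM, so the low value of RLTR42 and that of Tfpi can share fragments.

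**Figure D5:**
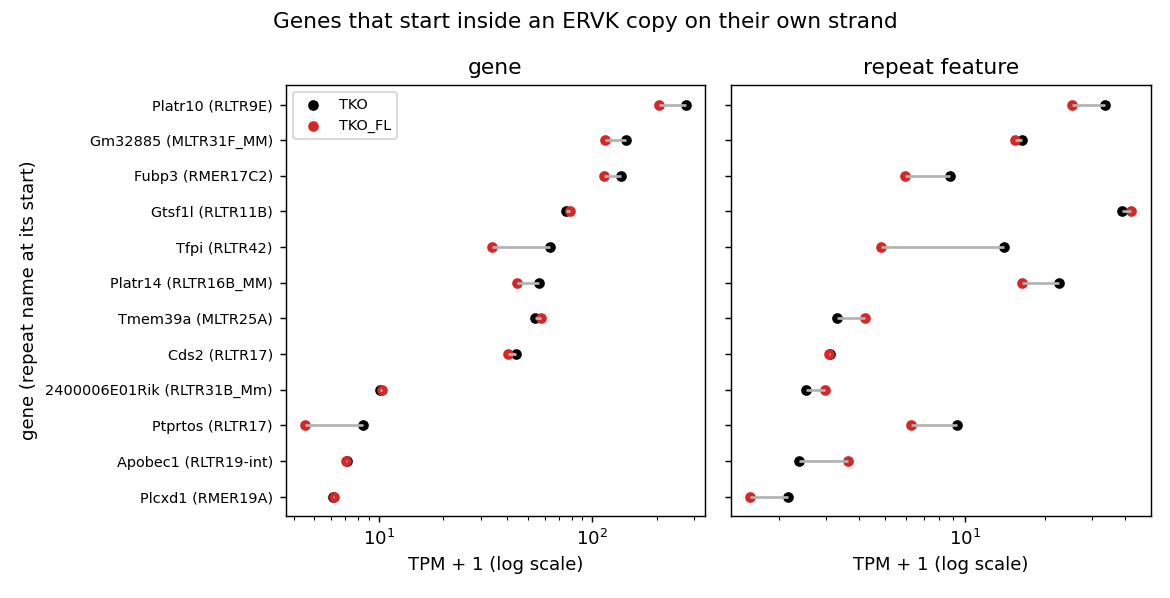
TPM plus 1 on a log scale in TKO (black) and TKO_FL (red), 1 library each, for the 12 genes that start inside an ERVK copy with at least 10 fragments (left, gene table scale) and for the repeat feature that holds the copy (right, repeat table scale). Tfpi with RLTR42 has the widest gap on the right, 13.0 and 3.85 TPM.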

How the data were processed

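Poly(A)-selected RNA of 1 TKO and 1 TKO_FL library was compared through the authors' deposited repeat and gene tables, whose signal columns are named TPM in the file name. Tools in the submitters' processing notes are Trim Galore, HISAT2, SAMtools, Subread and featureCounts, on mm10; the repeat annotation and the counting options were not given in the sources used here. Columns of the deposited repeat signal summed to 9802100 (TKO) and 9804588 (TKO_FL) and were divided by 10. Another 11 columns in each table match none of these samples and were not used. Fragments were recovered as value times length over the commonest product: 85.0% of TKO repeat features with signal gave whole numbers (tolerance 0.0001). The rest gave fractions and are taken here as features that hold shared fragments. Gene values gave 10860308 and 10084492 fragments.

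A log2 fold used a pseudocount of 1, with minimums of 5 TPM for names, 10 fragments for features and 1 TPM for genes, and a 2-fold threshold. Overlaps of at least 1 base used bedtools 2.31.1 and the gene table's exons; other steps used Python 3.11.15 with scipy 1.17.1, pandas 2.3.3 and numpy 2.4.6. The interval step was tested on simulated data. Named repeats are MMERVK10C-int, RLTR10C, the 10 highest and 10 lowest folds, the 10 most abundant names, LTR and internal pairs, and the leading features of the 5 most abundant names; others were chosen after their values were seen. The members and lists were chosen with earlier results of these data known. Alternatives were other pseudocounts and filters, other scalings, and leaving out features. TKO_602 and the immunoprecipitation samples were not analysed here.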

Additional observations from a re-analysis of the deposited data

How the results depend on the processing

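No paired analysis was possible because there is 1 library per genotype. The main counts were 9 names higher and 8 lower and 50 features higher and 55 lower. With a pseudocount of 5 the names were 5 and 5 and the features 6 and 11, and with 0.1 the features were 99 and 166. Without a filter 17 names were lower, and 270 features were higher and 283 lower; with minimums of 20 TPM or 50 fragments the names were 5 and 2 and the features 9 and 7. As fragments scaled to the library total without division by length, the names were 3 and 5 and the features 100 and 141; the median log2 fold of names was 0.0267, that of the summed members 0.0316 and that of MMERVK10C-int -0.78. Without the leading feature of each name 3 names were higher, and BGLII_B2 (0.77) and RMER3D-int (-0.13) changed side. Without features that hold shared fragments 16 names and 36 features were lower, the summed members had 0.0263 and MMERVK10C-int had -1.47. In fragments the same MMERVK10C-int features had 241 and 181, a ratio of -0.24 whose interval, -0.53 to 0.04, spanned 0. Of their 100.6 TPM in TKO, 51.5 came from 3 fragments on MMERVK10C-int_dup269, which had 0 in TKO_FL. With the same features left out, 7 intervals of names with at least 500 fragments lay above 0, where 11 did with all features. Scaled to gene fragments, an alternative chosen after seeing the data like the last one on intervals, the summed members had -0.079 and 15 of the 36 intervals lay below 0, where 9 did on the repeat scale. RLTR12G, RLTR42 and RMER16B2 were the 3 of 17 called names still called under the alternatives applied to single names; the filters were not among these, and the minimum of 20 TPM leaves out all 3. The cause of each change was not tested. Depth limits the called names, 9 of 17 of which had under 50 fragments.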
